A study of Mus musculus with 75 samples.

Results

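The Hox genes encode homeodomain transcription factors that give cells a position along the body axis. All symbols of the deposited gene tables made of Hox, a cluster letter from a to d and a number were taken, which gave 36 of 22781 symbols. The Hoxa cluster on chromosome 6 gave 11 genes, Hoxb on chromosome 11 gave 10, Hoxc on chromosome 15 gave 8 and Hoxd on chromosome 2 gave 7. The table of chow-fed animals lists all 36 and the table of animals on a high-fat diet (HFD) lists 31, without Hoxa13, Hoxb1, Hoxb13, Hoxc13 and Hoxd11. Hoxc12, Hoxd12 and Hoxd13 were not analysed here.

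The data are 75 RNA-seq libraries of total RNA from 43 mice: 29 of epididymal white fat (eWAT), 30 of inguinal white fat (iWAT) and 16 of gastrocnemius, a calf muscle. The mice had 1 of 4 pairings of a nuclear genome (written n) with a mitochondrial genome (written mt). The wild types are C57BL6/J, written C57n:C57mt, and C3H/HeN, written C3Hn:C3Hmt; the mitochondrial-nuclear exchange (MNX) mice are C57n:C3Hmt and C3Hn:C57mt. Chow was the diet of 47 libraries (15 eWAT, 16 iWAT, 16 muscle), and HFD, given from week 6 of age, that of 28 (14 eWAT, 14 iWAT), and animals on either diet were 12 to 13 weeks old at the end. These make 20 groups of 3 or 4 libraries, the groups of 3 being C3Hn:C3Hmt on chow and both MNX pairings on HFD in eWAT, and both C3Hn pairings on HFD in iWAT. Some animals gave several tissues, and the sex of the mice is not stated in the labels.

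Hox genes lie in 4 clusters, and members with the same number in different clusters are paralogues, numbered from 1 at the end of a cluster whose genes act toward the head to 13 at the end whose genes act toward the tail and the ends of the limbs. During development they are switched on in the order of their number, and many adult mesenchymal cells keep the pattern of their place of origin. In white fat, the pattern of Hox expression is known to differ between depots. Hox proteins bind DNA with Pbx and Meis cofactors, and Polycomb and Trithorax proteins hold the clusters silent or active.

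In the Hoxa cluster the depots parted between Hoxa7 and Hoxa9, neighbours whose outermost start sites are 9235 bases apart in mm9, the build of the deposited counts. The sequence upstream of Hoxa7, Hoxa9 and Hoxa10 is shown because these neighbours differ in their depot pattern. It comes from RefSeq on GRCm38.p6 (minus strand of chromosome 6, read 5′ to 3′ toward the gene), in a window of 250 bases that ends at the start site. Of Hoxa7 only the 112 bases farthest from the start are printed, since an exon of a longer transcript covers the rest in mm9. Capitals mark TTTATG, the core site of caudal-type (Cdx) factors, and GGGCGG, the GC box.
Hoxa7, chr6:52218712-52218823: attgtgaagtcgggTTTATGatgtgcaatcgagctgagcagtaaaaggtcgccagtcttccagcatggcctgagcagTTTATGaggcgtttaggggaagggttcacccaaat
Hoxa9, chr6:52227371-52227620: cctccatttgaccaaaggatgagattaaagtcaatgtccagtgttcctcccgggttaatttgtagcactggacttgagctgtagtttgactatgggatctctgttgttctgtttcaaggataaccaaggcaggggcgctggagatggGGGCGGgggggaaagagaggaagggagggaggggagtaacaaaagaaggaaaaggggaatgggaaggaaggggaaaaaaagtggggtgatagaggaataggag
Hoxa10, chr6:52240855-52241104: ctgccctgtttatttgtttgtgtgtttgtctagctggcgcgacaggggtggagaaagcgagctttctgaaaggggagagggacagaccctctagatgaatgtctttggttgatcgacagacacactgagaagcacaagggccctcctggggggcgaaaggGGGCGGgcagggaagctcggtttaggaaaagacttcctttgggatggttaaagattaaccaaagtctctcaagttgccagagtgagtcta
Each whole window matched 1 place in mm9. The Hoxa7 and Hoxa9 windows lie inside the mm9 span of their genes, in intron sequence as printed, and the Hoxa10 window ends at that gene's mm9 start. On both strands, TTTATG was found 2 times in the Hoxa7 window, and GGGCGG was found 1 time each in the Hoxa9 and Hoxa10 windows. Of 32851 RefSeq windows of this length, 10.8% hold TTTATG and 32.7% hold GGGCGG. TGATNNAT (a joint Hox and Pbx site, in 7.68% of windows), TATAAA (12.4%) and CCAAT (33.8%) were not in these 3 windows. The matches are letters in a window and show no binding. RefSeq windows were at hand for 20 of the 36 genes.

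The labelled tissues carried their markers. Adipoq, made by fat cells, had a median of 3310 counts per 1000000 (CPM) in eWAT and 2139 CPM in iWAT on chow against 40.2 CPM in muscle, while Ckm, the creatine kinase of muscle, had a median of 52920 CPM in muscle. CPM are counts over the library total times its TMM factor, whose median was 0.494 in muscle, 1.24 in eWAT and 1.17 in iWAT, so muscle CPM lie above and fat CPM below the plain share of counts. Library totals ran from 15747683 to 31477366 expected counts. Epithelial RNA was held by 6 eWAT libraries (5 on chow, 1 on HFD). In these, 17 epididymis genes summed to 2259 to 74553 CPM, against 0.43 to 20.5 CPM in the other 23. The 14 epithelial genes summed to 1415 to 7098 CPM, against 16.9 to 228.9 CPM. Among the 6, only C3Hn:C57mt replicate 2 on chow had an epithelial sum (4287 CPM) above its epididymis sum (2259 CPM). The source of its epithelial RNA was not tested. In iWAT, the 20 lymphocyte and lymph node genes summed to 677.4 CPM or more in 14 libraries (11 on chow, 3 on HFD) and to 273.8 CPM or less in the other 16. The 16 fast-muscle genes passed 1000 CPM in 12 iWAT libraries (5 on chow, 7 on HFD) and reached 29917 CPM, against 228895 CPM or more in muscle. One HFD library, iWAT C3Hn:C3Hmt replicate 3, is the lone library of its sequencing run and had the highest lymph node sum, 4856.6 CPM, and the lowest sum of 14 adipocyte genes in iWAT, 21753 CPM against a median of 67615 CPM on HFD. Without it 2 Hox genes were called between the nuclear genomes in iWAT on HFD in place of 5. Macrophage markers (14 genes) summed to a median of 1365 CPM in eWAT on chow and 2388 CPM on HFD, and to 1388 and 1633 CPM in iWAT. Tissue and sequencing lane cannot be told apart on chow, nor can diet and sequencing run, by the codes in the titles. In bulk tissue, fewer cells of a type and less RNA per cell cannot be told apart.

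Levels of different genes were set beside each other as CPM per kilobase of transcript. Both fat depots were led by Hoxc8, whose protein patterns the trunk, and Hoxc6, and muscle by Hoxc10, a gene of the hindlimb and lumbar region. In eWAT on chow, Hoxc8 had a median of 19.4 CPM per kb (range 1.92 to 27.6), followed by Hoxc6 at 11.2, Hoxc4 at 5.52, Hoxc5 at 5.32 and Hoxd8 at 3.59. This order includes the 5 libraries with epithelial RNA, whose levels differed. Over both diets, Hoxd8 had a median of 25.6 CPM in the 6 epithelial libraries and 8.16 CPM in the other 23. For Hoxb6 these medians were 33.6 and 1.56 CPM, and for Hoxc8 18.3 and 45.9 CPM. In iWAT on chow, Hoxc8 stood at 15.4 CPM per kb (8.48 to 21.4), Hoxc6 at 11.5 (8.06 to 15.2), Hoxc10 at 9.11 (5.74 to 12.8), Hoxc5 at 4.15 and Hoxa10 at 3.96. The ranges of Hoxc8 and Hoxc6 overlapped in both depots, and so did those of Hoxc6 and Hoxc10 in iWAT. In muscle, Hoxc10 stood at 65.9 CPM per kb (58.9 to 68.8), above Hoxd9 at 13.98 (12.2 to 16.9), Hoxd8 at 12.8 (10.8 to 13.98), Hoxa10 at 11.6 (9.62 to 13.0) and Hoxc9 at 5.53 (4.16 to 6.89). The range of Hoxc10 in muscle overlapped that of no other Hox gene, whereas Hoxd9, Hoxd8 and Hoxa10 overlapped their neighbours in the order. On HFD the order began with Hoxc8, Hoxc6, Hoxc4, Hoxc5 and Hoxa5 in eWAT (16.2, 7.78, 4.22, 3.63 and 2.72 CPM per kb) and with Hoxc8, Hoxc6, Hoxc10, Hoxa10 and Hoxc5 in iWAT (16.3, 10.8, 8.68, 4.72 and 4.05 CPM per kb). As only 1 eWAT library on HFD held epithelial RNA, Hoxa5 in the place of Hoxd8 cannot be read as a change with diet. Without the epithelial libraries, Hoxa5 was at place 5 in eWAT on chow (3.72 CPM per kb) and Hoxd8 at place 7 (3.17). On HFD they were at places 5 and 6 there (2.72 and 2.62 CPM per kb).

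**Figure D1:**
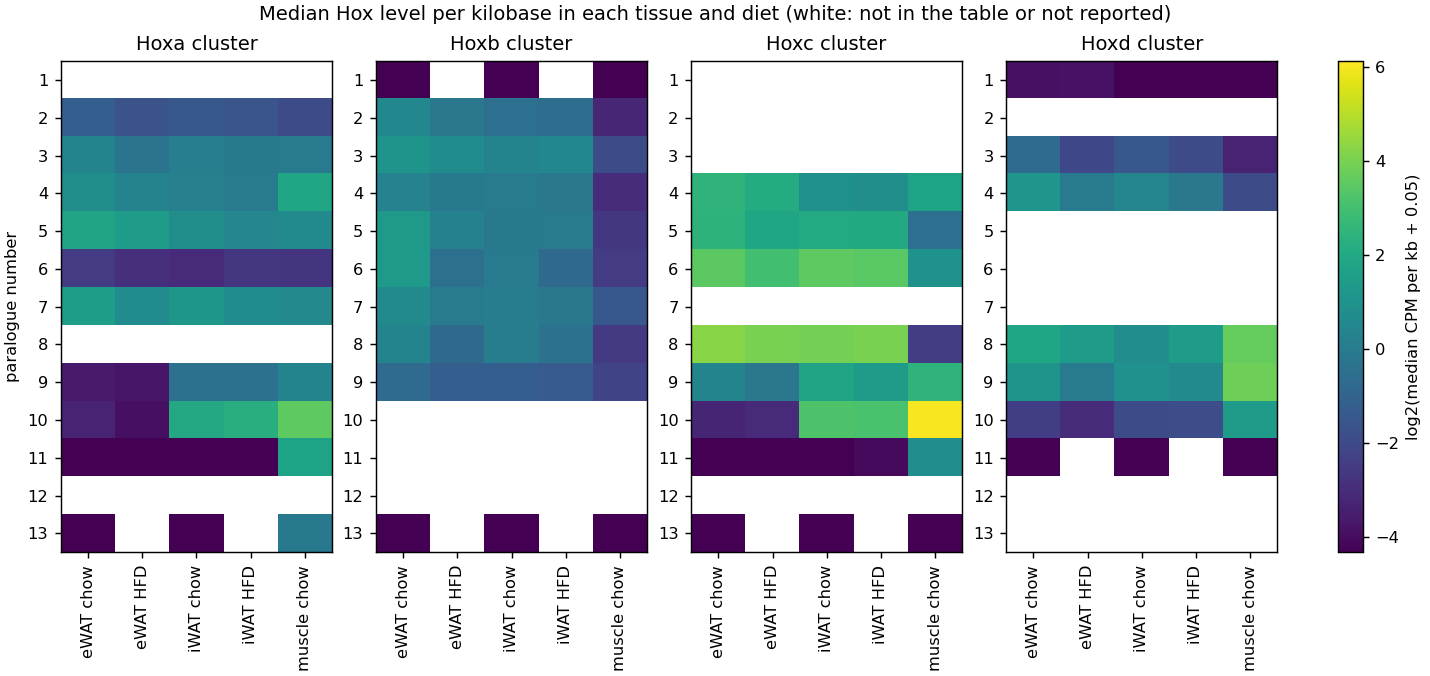
Median CPM per kilobase of the Hox genes, with a panel for each cluster, a row for each paralogue number and a column for each tissue and diet, as a colour on a log2 scale (0.05 added), with white where a gene is not in that table or not reported. Hoxc8 leads the fat columns, at 19.4 in eWAT and 15.4 in iWAT on chow, and Hoxc10 the muscle column, at 65.9.

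Several genes had medians at or near 0 in all tissues. Hoxb1, Hoxc13, Hoxd1 and Hoxd11 had a median under 0.05 CPM wherever they are listed, below the 0.0794 CPM that 3 counts make in the deepest eWAT library. Among eWAT libraries with epithelial RNA on chow, Hoxb1 reached 2.07 CPM (68 counts), Hoxd1 0.640 CPM and Hoxd11 0.729 CPM (21 counts each). Hoxb13 was at 0 in all muscle libraries and at no more than 3 counts in fat on chow, apart from 1 eWAT library described below. Read assignment is uncertain where genes overlap in mm9, since the strand used in counting is not given in the sources used here: Hoxa2 with Hoxa3, Hoxb7 with Hoxb8 and Hoxd3 with Hoxd4 on the same strand, and Hoxa3, Hoxa7, Hoxa11, Hoxb2, Hoxb3, Hoxb5 and Hoxd3 with antisense transcripts.

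The comparison of the depots asked which Hox genes differ between eWAT and iWAT, with the mean over the 4 genotypes. On chow, 15 of the 29 Hox genes tested were higher and 4 lower in eWAT, where 18.9% of all 18325 genes tested were higher and 14.4% lower (33.3% called). The median log2 difference was 0.81 over the Hox genes and 0.04 over all genes. On HFD, 3 were higher and 5 lower, where 10.1% of all genes were higher and 13.0% lower (23.0% called), and the medians were 0.08 and -0.02. The 4 genes lower in eWAT on chow were Hoxa9, Hoxa10, Hoxc9 and Hoxc10, and all 4 were lower on HFD too, joined by Hoxd10. Of the genes numbered 1 to 3, 3 of 6 were higher on chow, and of those numbered 4 to 8, 10 of 15. The 4 genes kept their call without the epithelial, the lymph node or the muscle-RNA libraries, and with animal as a block. Without lymph node libraries, a fit that keeps 5 of 16 iWAT libraries on chow, 6 genes were called on chow in place of 19. They were these 4, and Hoxa5 and Hoxb4 as higher in eWAT. The share of all genes called in that fit is not given here.

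Hoxc10 gave the largest contrast of the fat depots on chow. In eWAT on chow its lowest, median and highest values were 0.0305, 0.106 and 2.06 CPM, and in iWAT 10.96, 17.4 and 24.4 CPM. The groups did not overlap; only 7 of 15 eWAT libraries had more than 3 counts, and the highest, at 2.05 and 2.06 CPM, were epithelial libraries, without which the highest was 0.263 CPM. The difference was -6.09 ± 0.48 (log2 ± SE; edgeR quasi-likelihood test, adjusted p = 1.626e-13), about 68.2-fold, and -7.28 without the epithelial libraries. On HFD the values were 0, 0.134 and 0.925 CPM in eWAT and 5.35, 16.6 and 29.6 CPM in iWAT, again apart, and the difference was -6.22 ± 0.50 (adjusted p = 3.541e-13). Over the 4 genotypes the log2 difference ran from -7.88 to -4.58 on chow and from -7.20 to -5.62 on HFD. In iWAT libraries without muscle RNA, Hoxc10 still ran from 5.35 to 25.6 CPM (18 libraries), and with it from 14.4 to 29.6 CPM (12 libraries).

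Hoxc9, its neighbour, was present in both depots. In eWAT on chow it had 1.15, 3.02 and 4.25 CPM (lowest, median, highest), and in iWAT 5.64, 8.15 and 10.9 CPM, with no overlap. The difference was -1.49 ± 0.15 (adjusted p = 7.225e-11), and -1.54 ± 0.16 on HFD (adjusted p = 2.238e-10), where the groups overlapped: eWAT had 0.939, 2.00 and 4.13 CPM and iWAT 2.70, 6.48 and 10.2 CPM. Hoxc8, the next gene, had 4.41, 44.6 and 63.5 CPM in eWAT and 19.5, 35.4 and 49.3 CPM in iWAT on chow, overlapping and without a call. Hoxc11, on the far side of Hoxc10, had no more than 0.243 CPM in any fat library.

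The Hoxa cluster showed the same kind of step between Hoxa7 and Hoxa9, the pair whose upstream sequence is printed above. Hoxa7 had 2.71, 5.62 and 8.08 CPM in eWAT and 3.17, 4.58 and 7.63 CPM in iWAT on chow, overlapping and without a call. Hoxa9 had 0.0435, 0.107 and 5.80 CPM in eWAT, with more than 3 counts in 7 of 15 libraries, against 1.73, 2.23 and 3.61 CPM in iWAT. Hoxa10, known for its part in the lumbar spine and the reproductive tract, had 0, 0.134 and 32.8 CPM in eWAT against 6.15, 10.2 and 12.7 CPM in iWAT. For both genes the groups overlapped only through epithelial libraries: without them the eWAT maximum was 0.301 CPM for Hoxa9 and 0.452 CPM for Hoxa10. The differences on chow were -2.24 ± 0.50 for Hoxa9 (adjusted p = 0.0005094) and -3.62 ± 0.62 for Hoxa10 (adjusted p = 1.421e-05). Without the epithelial libraries they were -4.23 and -6.74, and with animal as a block -3.59 and -5.32 (adjusted p = 0.01835 and 0.01902). On HFD, eWAT had no more than 0.348 CPM of Hoxa9 and 0.661 CPM of Hoxa10, and iWAT no less than 0.819 and 4.77 CPM, so the groups were apart. The differences on HFD were -4.40 ± 0.60 (adjusted p = 3.511e-07) and -6.74 ± 0.77 (adjusted p = 6.865e-09). Hoxa11 had more than 3 counts in 4 of 15 eWAT libraries on chow, all of them epithelial, and in 1 of 16 iWAT libraries.

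**Figure D2:**
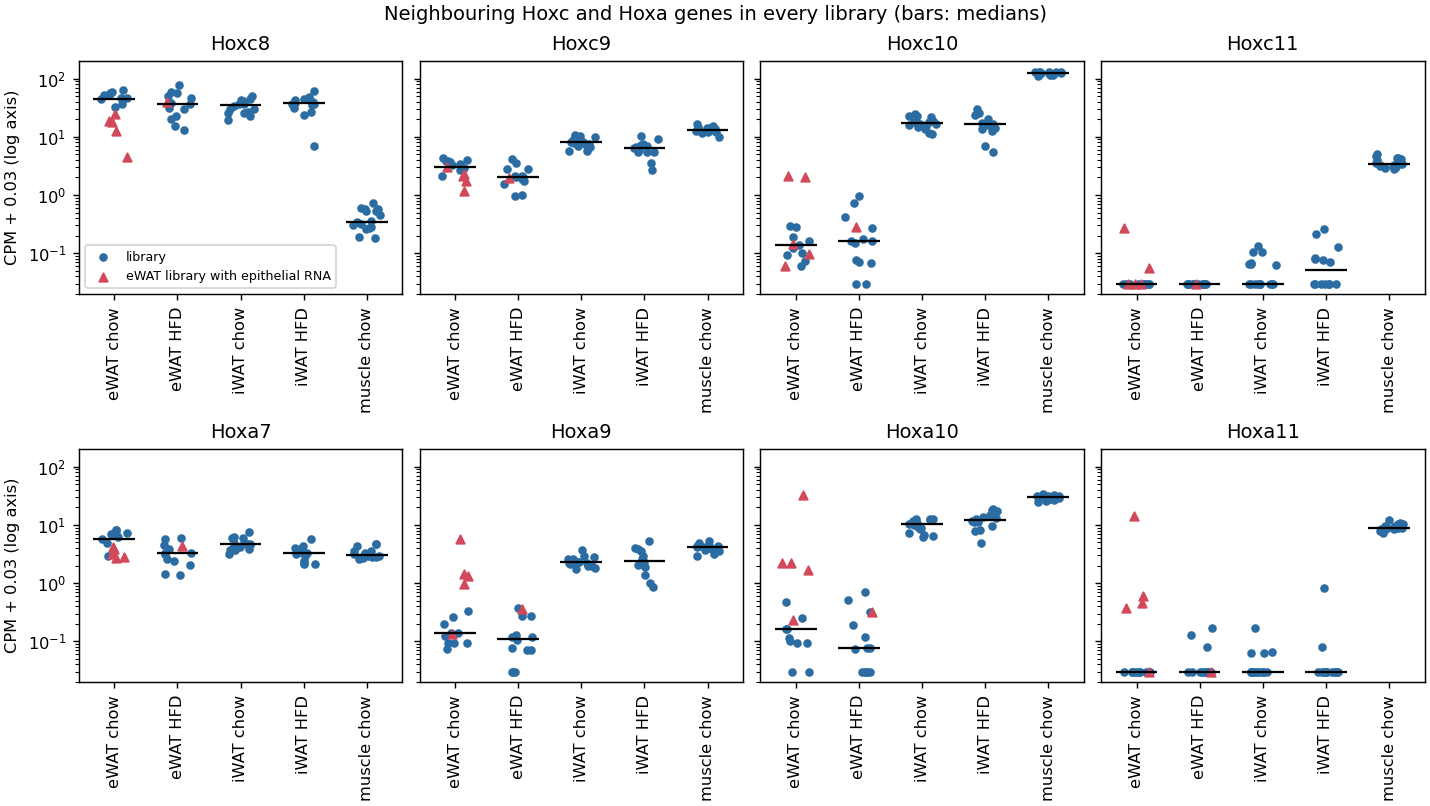
Each library's CPM (log axis, 0.03 added) for neighbouring Hoxc genes (upper row) and Hoxa genes (lower row) by tissue and diet, with a bar at the median and red triangles for eWAT libraries with epithelial RNA. Hoxc8 and Hoxa7 overlap between the depots, whereas Hoxc10 has a median of 0.106 CPM in eWAT and 17.4 CPM in iWAT on chow, and the high eWAT values of Hoxa9 to Hoxa11 are epithelial libraries.

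Groups that did not overlap were few among all genes: on chow 0.131% of genes were lower in eWAT in this way and 0.256% higher, and among the 29 Hox genes 2 were lower (Hoxc9, Hoxc10) and 0 higher. On HFD 3 Hox genes were lower in this way (Hoxa9, Hoxa10, Hoxc10; 0.180% of all genes) and 1 higher (Hoxc4; 0.349% of all genes). Hoxd10 was called lower on HFD only, at -1.68 ± 0.42 (adjusted p = 0.002724). On chow the epithelial library with the highest Hoxd10 stood at 4.30 CPM, above the iWAT maximum of 1.20 CPM. Without the epithelial libraries the eWAT maximum on chow was 0.461 CPM. The difference between the diets is taken up below.

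Among the genes higher in eWAT, Hoxa5 and Hoxc4 were called on both diets. Hoxa5, which patterns the lower neck and lung, had 3.02, 6.34 and 9.64 CPM in eWAT and 2.29, 3.23 and 4.56 CPM in iWAT on chow. Those groups overlapped only at the low end of eWAT, and the difference was 0.93 ± 0.12 (adjusted p = 1.313e-07), and 0.92 ± 0.13 on HFD (adjusted p = 8.969e-07). Hoxc4 had 1.04, 11.7 and 15.5 CPM in eWAT and 1.71, 3.91 and 6.09 CPM in iWAT on chow. The low eWAT values of Hoxc4 were epithelial libraries: the other 10 ran from 8.10 to 15.5 CPM, above all iWAT libraries. Its difference was 1.40 ± 0.20 on chow (adjusted p = 8.59e-07) and 1.28 ± 0.21 on HFD (adjusted p = 1.83e-05). Without lymph node libraries, the chow difference of Hoxc4 was 1.04 ± 0.35 and not called (adjusted p = 0.09192), a fit that keeps 5 of 16 iWAT libraries.

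The Hoxb cluster was higher in eWAT on chow as a block, 8 of 8 genes tested, and 1 of 8 on HFD. These calls moved with the epithelial libraries. Hoxb8, which patterns the trunk and also acts in blood cell precursors, had 11.5 to 140.3 CPM in the 6 epithelial libraries and 0.665 to 5.77 CPM in the other 23. Hoxb6 had 9.81 to 101.2 CPM there against 0.677 to 7.26 CPM, and Hoxb7 and Hoxd9 were also higher in each of the 6 than in all 23 others. Hoxb6 was called higher in eWAT on both diets, at 2.31 ± 0.45 on chow (adjusted p = 8.999e-05) and 1.31 ± 0.48 on HFD (adjusted p = 0.04365). Without epithelial libraries Hoxb6 stood at 0.43 ± 0.18 on chow (adjusted p = 0.05816) and 0.49 ± 0.17 on HFD (adjusted p = 0.02919), and on HFD its call was lost without any 1 of 19 of the 28 libraries (adjusted p up to 0.423). Leaving the epithelial libraries out ended 8 of the 15 calls of higher genes on chow, those of Hoxb4, Hoxb6, Hoxb7, Hoxb8, Hoxb9, Hoxd3, Hoxd4 and Hoxd9. Hoxb5 at 1.07 ± 0.18 (adjusted p = 1.47e-05), Hoxb2 at 1.45 ± 0.26 (adjusted p = 2.743e-05) and Hoxd8 at 1.66 ± 0.23 (adjusted p = 6.183e-07) were called with all libraries and without the epithelial ones, where Hoxb2 stood at 0.72 and Hoxd8 at 0.89. Among the 8 animals with both depots on chow, the animal block gave 5 higher and 4 lower genes. The same animals without a block gave 6 higher and 4 lower. Shares of all genes called in these fits are not given here.

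**Figure D3:**
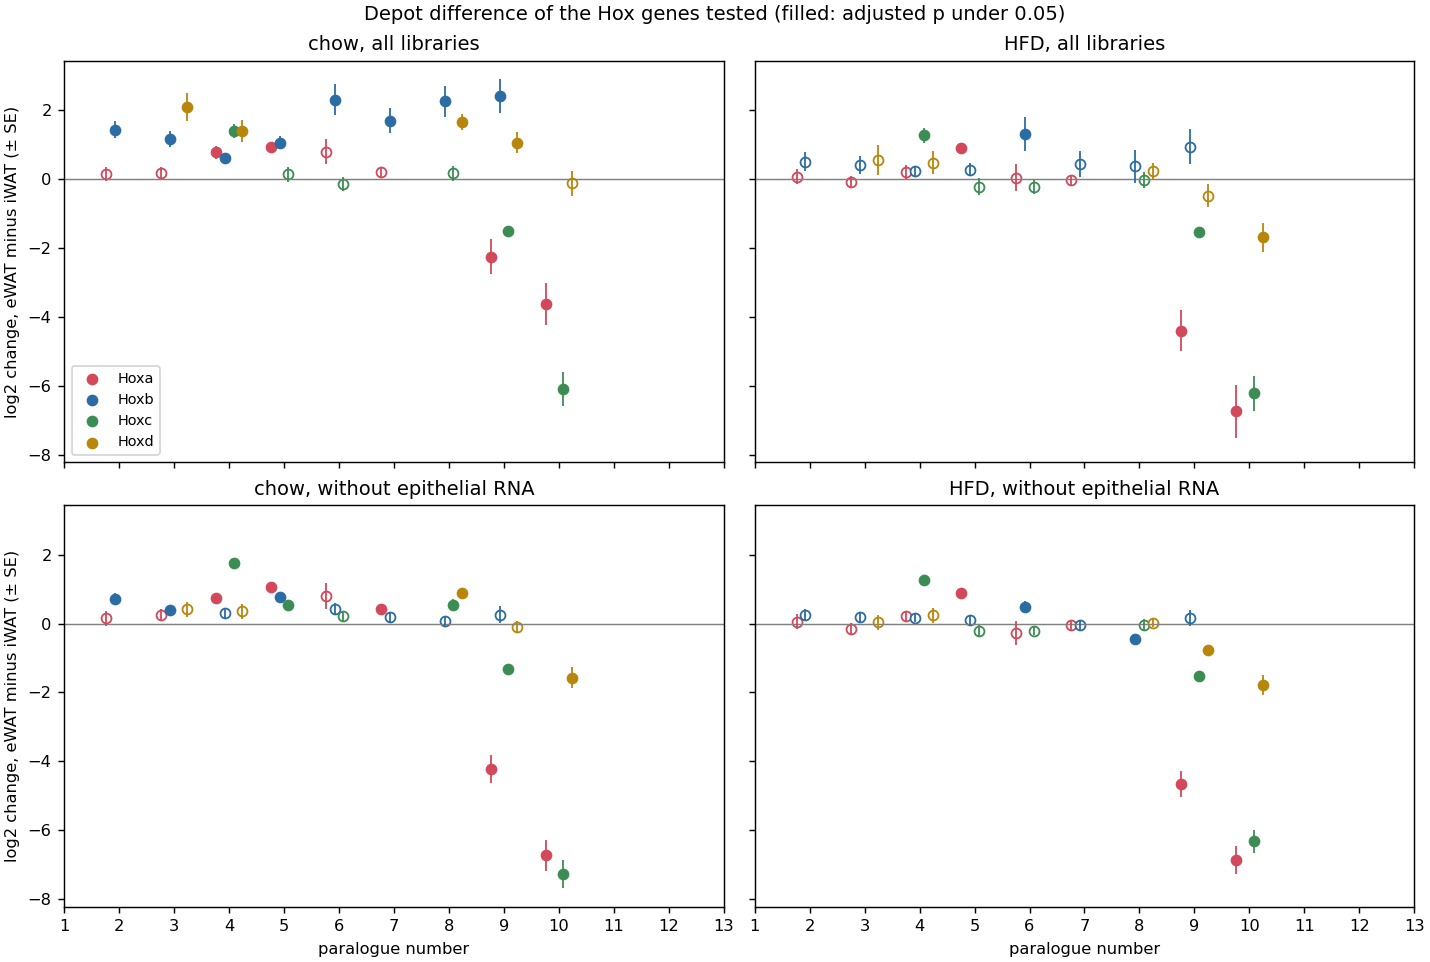
Log2 difference of eWAT minus iWAT (± SE) for the Hox genes tested, by paralogue number and cluster colour, on chow and HFD, with all libraries (top) and without the eWAT libraries with epithelial RNA (bottom); filled points have an adjusted p under 0.05, and Hoxa11, near 0 counts in fat, is not drawn. The points of Hoxa9, Hoxa10, Hoxc9 and Hoxc10 lie below 0 in every panel, while 8 of the 15 filled points above 0 on chow are open without the epithelial libraries.

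The epithelial libraries differed among themselves in their Hox genes. C3Hn:C57mt replicate 2 on chow had Hoxb13, a gene of the tail end of the body and of the prostate, at 153.2 CPM (4412 counts), against no more than 3 counts in every other fat library on chow. The same library had the highest eWAT values of Hoxa10 (32.8 CPM), Hoxa11 (14.4 CPM), Hoxa13 (3.96 CPM) and Hoxd10 (4.30 CPM). Its epididymis sum, 2259 CPM, was the lowest of the 6, its mesothelial sum was 1263 CPM and its fast-muscle sum 1010 CPM. The 2 libraries with the highest epididymis sums, C57n:C3Hmt replicates 1 and 4 on chow at 74553 and 69330 CPM, had Hoxb8 at 140.3 and 127.9 CPM, Hoxa10 at 2.17 and 1.67 CPM and Hoxb13 at 0.

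The comparison of muscle with fat on chow gave a split by position in the cluster. Against eWAT, 11 of 30 Hox genes were higher in muscle and 19 lower, where 32.8% of all 18358 genes were higher and 49.7% lower (82.6% called). The median log2 difference was -0.93 over the Hox genes and -0.51 over all genes. Of the genes numbered 4 to 8, 12 of 14 were lower and 2 higher, and of those numbered 9 to 13, 9 of 10 were higher and 1 lower. Against iWAT, 11 were higher and 16 lower, where 34.1% of all genes were higher and 46.3% lower (80.4% called), with medians of -0.54 and -0.32. There, 10 of 14 numbered 4 to 8 were lower and 3 higher, and 8 of 10 numbered 9 to 13 higher and 1 lower. All 8 Hoxb genes tested were lower in muscle against either depot.

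These counts lean on how libraries are scaled, since muscle-specific transcripts take a large share of each muscle library. With library totals alone, the median of all genes fell to -1.77 against eWAT and -1.49 against iWAT. Of the 11 higher genes, 9 were still called higher against eWAT and 8 against iWAT. Against eWAT, Hoxa4 was called lower (-0.42, adjusted p = 0.04018), and Hoxd8 turned sign without a call (-0.073, adjusted p = 0.7796). Against iWAT, Hoxc9 was called lower (-0.51, adjusted p = 4.444e-06), and Hoxc4 turned sign without a call (-0.37, adjusted p = 0.07044).

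Hoxc10 had 112.4, 125.9 and 131.4 CPM in the 16 muscle libraries, apart from both depots. It was higher than in eWAT by 8.97 ± 0.42 (log2 ± SE, adjusted p = 1.589e-21), or 10.15 without the epithelial libraries, and than in iWAT by 2.85 ± 0.27 (adjusted p = 2.852e-12). Its neighbour Hoxc11, near 0 in fat, had 2.81, 3.44 and 5.11 CPM, and Hoxc9 had 9.88, 13.1 and 16.4 CPM. For Hoxc9 the difference was 2.21 ± 0.11 against eWAT (adjusted p = 2.65e-20) and 0.71 ± 0.10 against iWAT (adjusted p = 9.366e-08). Against iWAT the ranges overlapped, and with library totals alone Hoxc9 was called lower in muscle (-0.51, adjusted p = 4.444e-06).
Hoxc8 ran the other way, with 0.149, 0.319 and 0.702 CPM in muscle, below every fat library. Its difference was -6.64 ± 0.30 against eWAT (adjusted p = 4.465e-22) and -6.46 ± 0.29 against iWAT (adjusted p = 8.171e-22). Per kilobase, the muscle level of the Hoxc cluster rose from 0.139 CPM per kb at Hoxc8 to 5.53 at Hoxc9 and 65.9 at Hoxc10.

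In the Hoxa cluster, Hoxa11 and Hoxa13, which pattern the limb and the urogenital tract, were seen in muscle at 7.19, 8.93 and 12.0 CPM and at 0.996, 2.14 and 3.08 CPM. Both had medians of 0 CPM in either depot on chow, so no fold is given. Hoxa10 had 24.7, 29.7 and 33.3 CPM, above all iWAT libraries and above all eWAT libraries but the one at 32.8 CPM. Its difference was 5.26 ± 0.62 against eWAT (adjusted p = 6.785e-10) and 1.61 ± 0.46 against iWAT (adjusted p = 0.001806), and 8.36 against eWAT without the epithelial libraries. The iWAT call was lost with library totals alone (0.39, adjusted p = 0.4499) and without lymph node libraries (1.26, adjusted p = 0.2213), and DESeq2 gave 1.64 with no adjusted p.

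In the Hoxd cluster, Hoxd9 had 26.7, 30.5 and 36.9 CPM in muscle and 2.83, 4.14 and 6.30 CPM in iWAT, with no overlap, a difference of 2.97 ± 0.27 (adjusted p = 1.486e-12). Hoxd8 had 28.5, 33.6 and 36.8 CPM in muscle and 2.43, 4.51 and 6.73 CPM in iWAT, also apart, a difference of 2.89 ± 0.22 (adjusted p = 5.491e-15). Hoxd10 had 4.81, 6.86 and 8.86 CPM in muscle against no more than 1.20 CPM in iWAT and 4.30 CPM in eWAT. The trunk genes of Hoxb were near the floor: Hoxb4 had 0.0806, 0.309 and 0.805 CPM and Hoxb5 0.149, 0.320 and 0.689 CPM, where 3 counts make 0.193 to 0.284 CPM. Their differences from eWAT were -4.23 ± 0.19 (adjusted p = 3.877e-22) and -3.92 ± 0.21 (adjusted p = 1.327e-19). Among all genes, 17.8% were higher in muscle than eWAT with no overlap and 15.8% lower, and among 30 Hox genes 4 and 11. Against iWAT these shares were 21.3% for either direction, and the Hox counts 9 higher and 13 lower.

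The diet comparison asked which Hox genes differ between HFD and chow in each depot. In eWAT, 17 of 29 were lower on HFD and 0 higher, where 22.9% of all 17687 genes were lower and 18.5% higher (41.3% called), with medians of -0.76 and -0.10. No Hox gene was higher in eWAT in edgeR, also 0 at an unadjusted p under 0.05, and 0 in DESeq2. In iWAT, 5 of 28 were lower (Hoxa7, Hoxb6, Hoxb8, Hoxc9, Hoxd4) and 1 higher (Hoxd8), where 16.2% of all 16884 genes were lower and 21.4% higher (37.6% called). The macrophage sum in eWAT ran from 549 to 3323 CPM on chow and from 1196 to 7051 CPM on HFD, and its part in these differences was not tested. All chow libraries are from 1 run and no HFD library is. A fit with run as a covariate adjusts only among the HFD runs and takes the HFD level of 1 of them, so diet and run stay joined. The eWAT libraries of C57n:C3Hmt on HFD are all from another run, so their level there is extrapolated. For Hoxd9 in eWAT the SE was 0.43 without the covariate and 0.56 with it. A lower count in this fit does not measure the part of run in the calls. The eWAT count there was 1 (Hoxa7) and the iWAT count 3. Those 3 were Hoxb6, Hoxd8 and Hoxa10 (0.56, adjusted p = 0.01631), and Hoxa10 was not among the iWAT genes named above.

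Hoxa7, a trunk gene, had 2.71, 5.62 and 8.08 CPM in eWAT on chow and 1.33, 3.20 and 5.84 CPM on HFD. The groups overlapped, and the difference was -0.77 ± 0.18 (adjusted p = 0.001835), and -0.72 ± 0.24 with run as a covariate (adjusted p = 0.04303). In iWAT it had 3.17, 4.58 and 7.63 CPM on chow and 2.06, 3.24 and 5.60 CPM on HFD, a difference of -0.50 ± 0.11 (adjusted p = 0.001138), a call lost with run as a covariate (-0.29, adjusted p = 0.09031), without lymph node libraries (-0.62, adjusted p = 0.06078) and without muscle-RNA libraries (-0.49, adjusted p = 0.05361). Hoxb5 fell by 0.94 ± 0.22 in eWAT (adjusted p = 0.002163), Hoxd9 by 1.78 ± 0.43 (adjusted p = 0.002369) and Hoxb4 by 0.63 ± 0.16 (adjusted p = 0.004589). As 5 of 15 chow libraries but 1 of 14 HFD libraries held epithelial RNA, the counts were also taken without them: 18 genes were lower, 13 of them among the 17, Hoxd9 stood at -0.96 and Hoxa10 turned to 0.16. The share of all genes called lower in that fit is not given here.

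In iWAT, Hoxb6 had 0.996, 1.84 and 6.42 CPM on chow and 0.526, 1.06 and 1.72 CPM on HFD, overlapping, a difference of -1.07 ± 0.17 (adjusted p = 3.029e-05). It was called with run as a covariate (-1.06 ± 0.24, adjusted p = 0.002057) and without lymph node libraries (-0.83 ± 0.23, adjusted p = 0.04653). Hoxd8 had 2.43, 4.51 and 6.73 CPM on chow and 3.71, 7.03 and 10.3 CPM on HFD, overlapping, a difference of 0.66 ± 0.14 (adjusted p = 0.0005591). Without lymph node libraries Hoxd8 stood at 0.43 ± 0.16 and was not called (adjusted p = 0.1009). The lymph node sum had a median of 915.3 CPM in iWAT on chow and 75.2 CPM on HFD, and its part in these differences was not tested beyond this.

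**Figure D4:**
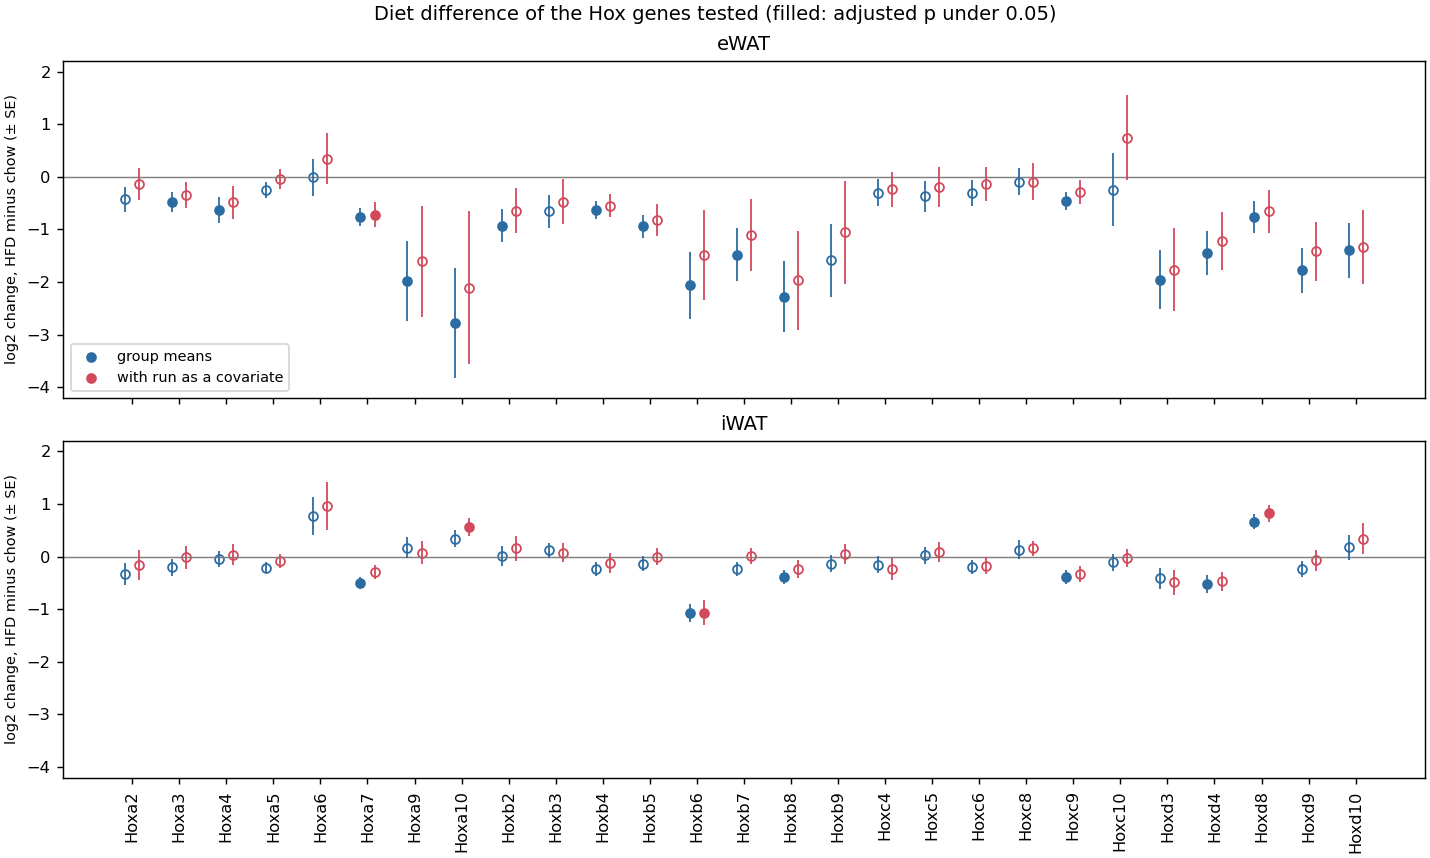
Log2 difference of HFD minus chow (± SE) for the Hox genes in eWAT (top) and iWAT (bottom), from group means (blue) and with run as a covariate (red); filled points have an adjusted p under 0.05, and Hoxa11, near 0 counts in fat, is not drawn. In eWAT 17 blue points are filled and 1 red point, that of Hoxa7. In iWAT Hoxb6 and Hoxd8 are filled in both. The red points take the HFD level of 1 HFD run and do not separate diet from run.

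Whether the depot difference changed with diet was tested as an interaction. No Hox gene of 29 was called in edgeR (13 at an unadjusted p under 0.05), where 8 of 18325 genes were (0.0437%). DESeq2 called 3, Hoxa10 (-3.20), Hoxd8 (-1.45) and Hoxd9 (-1.57). Leaving out the epithelial HFD library alone gave 8 in edgeR. The share of all genes called is not given here for DESeq2 or for fits with libraries left out, so these counts have no baseline. Without all 6 epithelial libraries edgeR called 1, Hoxd8 (-0.86, adjusted p = 0.04211), and Hoxa10 stood at -0.14 and Hoxd9 at -0.69. Hoxd10, called between depots on HFD only, stood at -0.22 there (adjusted p = 0.9059).

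The nuclear genomes were compared within each tissue and diet, as C57n minus C3Hn over both mitochondrial genomes. In eWAT on chow 4 of 29 Hox genes were called (15.1% of all genes were called, in either direction), on HFD 1 (13.2%), in iWAT on chow 5 of 28 (11.7%) and on HFD 5 (16.3%), and in muscle 2 of 18 (33.6%). Every Hox gene called in these edgeR tests was higher in C57n, where 5.59% to 17.1% of all genes were higher and 6.01% to 16.5% lower. Apart from iWAT on chow, the share of Hox genes called was near or below that of all genes. Without epithelial libraries 6 were called in eWAT on chow and 11 on HFD, all higher in C57n, among them Hoxc5 (1.248, adjusted p = 0.0002208) and Hoxc8 (1.07, adjusted p = 0.0005452) on HFD. The share of all genes called in that fit is not given here, so these counts have no baseline. With library totals alone, 1 Hox gene was called lower in muscle. In the first edgeR tests, with all libraries, TMM factors and no covariate, 0 were called lower. There, 0 lower genes had an unadjusted p under 0.05 apart from 2 in iWAT on HFD, and DESeq2 called those 2 lower. With run as a covariate, edgeR called Hoxa9 lower in iWAT on HFD (-0.80 ± 0.26, adjusted p = 0.03567). Hoxb5, which patterns the neck and shoulder region, was higher in C57n in all 4 fat comparisons. In iWAT on chow it had 2.49, 3.54 and 4.73 CPM in 8 C57n libraries and 1.44, 2.02 and 2.70 CPM in 8 C3Hn libraries, ranges that overlapped narrowly. The difference was 0.83 ± 0.19 (adjusted p = 0.004732), and 1.18 ± 0.22 on HFD (adjusted p = 0.0003775), with 2.56, 3.08 and 5.90 CPM against 0.846, 1.51 and 2.67 CPM.
Hoxb5 in eWAT on chow had 4.93, 7.59 and 16.2 CPM in C57n and 1.88, 2.95 and 6.87 CPM in C3Hn, a difference of 1.39 ± 0.31 (adjusted p = 0.00497). The ranges overlapped only through the epithelial libraries, without which C3Hn reached 4.17 CPM. On HFD the difference was 1.36 ± 0.32 (adjusted p = 0.006196), with 2.67, 4.40 and 6.13 CPM against 1.10, 1.24 and 5.29 CPM, the highest again an epithelial library.

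On 1 side of Hoxb5, Hoxb6 and Hoxb7 were called in iWAT on chow. On the other side, Hoxb4 was called in iWAT on neither diet. Hoxb6 on chow had 2.09, 2.55 and 6.42 CPM in C57n and 0.996, 1.34 and 1.59 CPM in C3Hn, with no overlap, a difference of 1.28 ± 0.23 (adjusted p = 0.0002896). Hoxb7 had 4.38, 4.85 and 6.72 CPM against 2.47, 2.999 and 3.45 CPM, also apart. Hoxb8 and Hoxa7 were called on chow, and Hoxb7, Hoxa7, Hoxb2 and Hoxc6 on HFD. Hoxb4, Hoxa3 and Hoxb3 were called beside Hoxb5 in eWAT on chow. In muscle Hoxc6 had 3.14, 3.90 and 4.77 CPM in C57n and 1.78, 2.63 and 4.59 CPM in C3Hn, overlapping, a difference of 0.51 ± 0.17 (adjusted p = 0.02618), and Hoxd10 differed by 0.28 ± 0.10 (adjusted p = 0.04142). With library totals alone neither was called (adjusted p = 0.0635 and 0.1754).
Without lymph node libraries, 0 of the 5 iWAT chow genes were called in edgeR (4 Hox genes at an unadjusted p under 0.05), a fit that keeps 5 of 16 libraries: Hoxb5 stood at 1.15 (adjusted p = 0.1582) and Hoxb6 at 0.75 (adjusted p = 0.5026). Without muscle-RNA libraries Hoxb5 in iWAT on chow was at 0.58 and not called (adjusted p = 0.1166). On chow each nuclear genome had its own lane in iWAT and muscle, and in eWAT for all but 1 library, so nuclear genome and lane cannot be told apart there, whereas on HFD the runs held both, apart from the run of 1 C3Hn iWAT library. Whether the depot difference depends on the nuclear genome was tested: 0 of 29 Hox genes were called in edgeR, 3 at an unadjusted p under 0.05 and 0 in DESeq2, where 1.29% of all genes were called. Without epithelial libraries edgeR called 1, Hoxc5 (0.92, adjusted p = 0.02112).

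**Figure D5:**
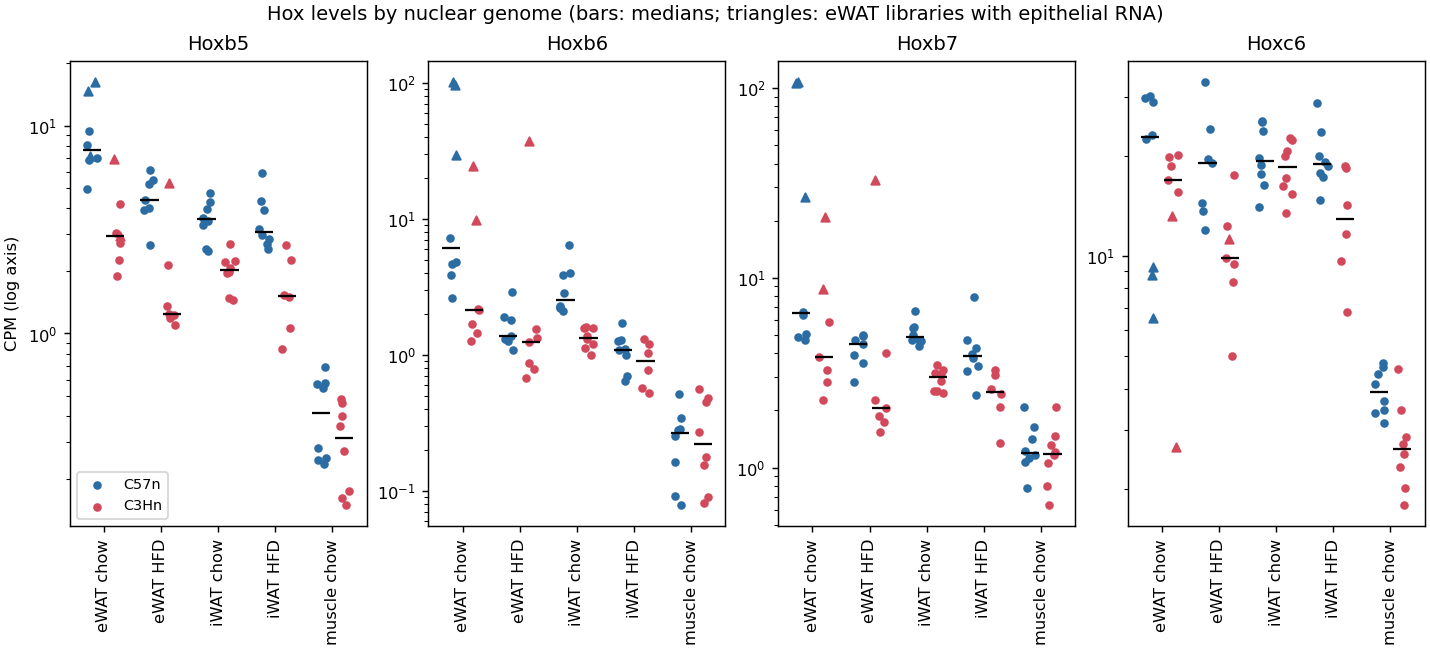
CPM of Hoxb5, Hoxb6, Hoxb7 and Hoxc6 in each library by tissue, diet and nuclear genome. Hoxb5 in iWAT on chow sits at 2.49 to 4.73 CPM in C57n and 1.44 to 2.70 CPM in C3Hn, and Hoxb6 there at 2.09 to 6.42 and 0.996 to 1.59 CPM.

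For mitochondrial DNA, the MNX mice were compared with the wild type of the same nuclear genome in 10 comparisons. In edgeR 0 Hox genes were called in each, where 0.0113% of all genes were called in C3Hn:C57mt eWAT on HFD, 0.00728% in C3Hn:C57mt muscle and 0 in the other 8, with 0 to 9 Hox genes at an unadjusted p under 0.05. DESeq2 called 2, Hoxa10 and Hoxa11 in C3Hn:C57mt against C3Hn:C3Hmt in eWAT on chow, a group that holds the library with Hoxb13 at 153.2 CPM. For the interaction of mitochondrial DNA with diet, 0 were called in edgeR in each of 4 tests, with 0 to 5 at an unadjusted p under 0.05, and DESeq2 called 2 (Hoxb6, Hoxb9 in eWAT of C3Hn). For the interaction of nuclear genome with diet, edgeR called 0 in either depot (8 and 4 at an unadjusted p under 0.05, with 0 and 0.717% of all genes called), and DESeq2 called 2 in eWAT, Hoxb6 and Hoxb8 (-3.50 for both). Without epithelial libraries these stood at -0.92 and -0.0028 in edgeR (adjusted p = 0.2476 and 1.0).

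Genes around the Hox system were read as lists. Of 10 cofactors of the Pbx, Meis and Pknox families, 4 were higher in eWAT than iWAT on chow and 1 on HFD, where 18.9% and 10.1% of all genes were higher; Meis1, a DNA-binding partner of Hox proteins, had 0.92 ± 0.16 (adjusted p = 2.153e-05) and 0.68 ± 0.17 (adjusted p = 0.002771). Of 26 Polycomb genes 3 were higher and 7 lower on chow, and 6 were lower on HFD, where 14.4% and 13.0% of all genes were lower. Of 16 Trithorax and H3K27 demethylase genes 0 were called in edgeR on either diet, with 2 at an unadjusted p under 0.05 on each, and DESeq2 was not run on these lists. In muscle against eWAT, 2 cofactors were higher and 8 lower, 12 Polycomb genes were higher and 12 lower, and 6 Trithorax genes were higher and 3 lower, where 32.8% of all genes were higher and 49.7% lower. Of 17 Cdx and retinoic acid genes, 5 were higher and 5 lower in eWAT on chow, against the same 18.9% and 14.4% of all genes, among them Aldh1a2, which makes retinoic acid, at 13.3 CPM (median) in eWAT and 2.60 CPM in iWAT (2.09 ± 0.20, adjusted p = 5.507e-11).
Other factors that mark position also differed between the tissues. Tbx15 had a median of 0.0715 CPM in eWAT, 14.9 CPM in iWAT and 404.4 CPM in muscle on chow, a depot difference of -7.47 ± 0.38. Shox2, a limb gene, had 0.342, 15.4 and 2.81 CPM (-5.55 ± 0.25), and En1, which marks ventral limb skin and parts of the trunk, 0.124, 1.99 and 8.83 CPM (-3.96 ± 0.34). Hoxc10 and Hoxa10 followed the order of Tbx15, lowest in eWAT and highest in muscle, in their medians.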

How the data were processed

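Total RNA of 75 libraries was sequenced on an Illumina HiSeq, and reads were mapped with the provider's own algorithm, per the labels' protocols. Reads were counted with RSEM on mm9, and DESeq2 1.10.1 was used by the authors, per the submitters' processing notes; no source used here gives the RSEM version or annotation. The deposited tables hold expected counts per gene, not normalized; they were rounded. The deposited quality tables give the percent of G and C in aligned bases, as computed by the sequencing provider per the file headers. The 36 genes and the lists were chosen with earlier results of these data known. Genes passing filterByExpr (minimum count 10, minimum total 15) were tested with edgeR 4.0.16 (limma 3.58.1, R 4.3.3): quasi-likelihood F test, TMM factors, group means, contrasts averaged over genotypes, Benjamini-Hochberg adjustment over all genes tested. A gene was called at an adjusted p under 0.05. All adjusted p values are from edgeR, two-sided, unless DESeq2 1.42.0 is named. Of 36 Hox genes, 29 passed the filter in the fit of both fat depots, 30 in that of all tissues on chow, 29 in eWAT, 28 in iWAT and 18 in muscle. A Hox gene is counted among these and not reported here by name. CPM are scaled over all 75 libraries. Floors of 3 counts cover counting error only.

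Both depots came from the same animal for 8 animals on chow and 12 on HFD, by the animal number in the titles; deviations of these depots correlated with medians of 0.135 and 0.149. Named members are those called on both diets between depots, the 5 highest per kilobase in each tissue, and up to 8 with the lowest adjusted p in each comparison; lists give up to 3 genes. The epithelial, lymph node and muscle-RNA cuts, the scaling by library totals, and the genes shown with upstream sequence were chosen after seeing the data. Separate animals were taken as replicates, as their numbers differ. The fits were tested on simulated data.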

Additional observations from a re-analysis of the deposited data

Results flagged for a closer look

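Dixon's test at its 95% level was run on 34 sets of values, each of 1 Hox gene called between nuclear genomes in the libraries of 1 nuclear genome, tissue and diet, and chance flags about 1 in 20. It set apart 6 values, which fall in 4 groups of libraries. In eWAT on chow, Hoxb3 was 8.71 CPM in C3Hn:C57mt replicate 2 and 2.11 to 3.98 CPM in the other C3Hn libraries, and in eWAT on HFD, Hoxb5 was 5.29 CPM in C3Hn:C3Hmt replicate 1 and 1.10 to 2.14 CPM in the others; both are libraries with epithelial RNA. In iWAT on chow, C57n:C3Hmt replicate 4 had Hoxb6 at 6.42 CPM (others 2.09 to 4.03) and Hoxb7 at 6.72 CPM (others 4.38 to 5.48). In iWAT on HFD, Hoxa7 was 5.60 CPM in C57n:C3Hmt replicate 2 (others 3.15 to 4.03) and Hoxb7 was 7.91 CPM in C57n:C3Hmt replicate 1 (others 2.41 to 4.68).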

How the results depend on the processing

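Counts of Hox genes called are given for chosen settings that moved them, and a setting not listed may also have moved them. The share of all genes called under each other setting or in DESeq2 is not given here, so these counts have no baseline. For eWAT minus iWAT on chow, 19 were called with all libraries, 6 without lymph node libraries, and among the paired animals 9 with the animal as block and 10 with no block; the block gave 6 calls on HFD against 7 without it, and it changed no other call by over 1.5 times. For HFD minus chow, eWAT gave 17, or 1 with run as a covariate, and iWAT 6, or 2 without lymph node libraries, 3 without muscle-RNA libraries and 3 with run as a covariate. The 3 without muscle-RNA libraries include Hoxd9 (-0.72), and the 3 with run as a covariate include Hoxa10 (0.56), neither among the 6. With library totals alone, Hoxa3, Hoxa4, Hoxc9 and Hoxd8 lost their call in eWAT. For C57n minus C3Hn, eWAT gave 4 on chow (12 in DESeq2) and 1 on HFD (11 without epithelial libraries, 5 in DESeq2). In iWAT this contrast gave 5 on chow (0 without lymph node and 3 without muscle-RNA libraries) and 5 on HFD (2 with no filter, 2 without lymph node libraries, 2 without muscle-RNA libraries, 8 in DESeq2). In muscle it gave 2, and 1 with no filter, 1 in DESeq2 and 1, a lower gene, with library totals alone. The depot by diet interaction gave 0, and 1 without epithelial libraries, 2 with run as a covariate and 3 in DESeq2; the depot by nuclear genome interaction gave 0, and 1 without epithelial libraries. DESeq2 called 2 genes where edgeR called 0 for mitochondrial exchange, for its interaction with diet and for nuclear genome by diet.

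The removal of trends on G+C content and length is partial, since 77.2% of all genes have both values and the others had no trend removed. Of the genes tested, 84% to 88.7% have a G+C value, and every Hox gene has both. No conclusion is drawn from this removal. It gave 19 and 8 for the depots on chow and HFD, 0 for each interaction and for mitochondrial exchange, 30 and 28 for muscle against eWAT and iWAT, 11 and 6 for diet in eWAT and iWAT, and 5, 1, 5, 5 and 1 for nuclear genome in eWAT on chow and HFD, iWAT on chow and HFD, and muscle. For diet in iWAT the count stayed at 6 but the genes changed. Hoxa6 (1.11), Hoxa10 (0.49) and Hoxb3 (0.74) were called higher beside Hoxd8. Hoxa7 and Hoxb6 stayed lower, and Hoxb8, Hoxc9 and Hoxd4 lost their call. The cause of these shifts was not tested.

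Leaving out 1 library at a time gave 19 to 20 calls for the depots on chow, 7 to 8 on HFD, 29 to 31 for muscle against eWAT and 27 to 28 against iWAT. It gave 0 to 8 for depot by diet, 8 without eWAT C3Hn:C3Hmt HFD replicate 1 and 1 without any of 8 other libraries. For diet it gave 10 to 18 in eWAT, with 10 or 11 without C3Hn:C3Hmt chow replicates 1 or 3, or without HFD replicates 2 or 3 of C3Hn:C57mt, 2 or 4 of C3Hn:C3Hmt, 2 or 3 of C57n:C57mt, or 3 of C57n:C3Hmt. In iWAT it gave 6 to 10, with 10 without C57n:C3Hmt HFD replicate 1. For nuclear genome it gave 2 to 13 in eWAT on chow: 13 without C3Hn:C57mt replicate 2, 9 without C57n:C3Hmt replicates 2 or 3, and 2 without C3Hn:C3Hmt replicates 2 or 3. It gave 1 to 2 in eWAT on HFD (2 without C3Hn:C57mt replicate 1), 4 to 6 in iWAT on chow and 2 to 7 in iWAT on HFD, with 2 or 3 without C3Hn:C57mt replicate 1, C57n:C57mt replicates 3 or 4, C57n:C3Hmt replicate 4 or C3Hn:C3Hmt replicate 3. In muscle it gave 0 to 2, with 0 without C3Hn:C3Hmt replicates 1 or 2 or C57n:C3Hmt replicates 2 or 3.

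For single genes, 902 of the values under other settings kept their call and direction, 130 lost the call and 6 turned sign: Hoxd9 between depots on chow to -0.093 and Hoxa10 between diets in eWAT to 0.16 without epithelial libraries, and with library totals alone Hoxa4 to -0.42 and Hoxd8 to -0.073 against eWAT, and Hoxc4 to -0.37 and Hoxc9 to -0.51 against iWAT. Of these 6, Hoxa4 against eWAT and Hoxc9 against iWAT were called lower in muscle. Among values without 1 library, 3348 kept the call and 188 lost it. Depth limits Hoxa9, Hoxa10 and Hoxc10 in eWAT and Hoxb genes in muscle, which lie at or near 3 counts.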
